A study of Homo sapiens with 18 samples.

Results

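This report covers 44 genes that write, erase, read or scaffold protein acetylation, other than the 4 acetyltransferase genes EP300, CREBBP, KAT2A and KAT2B, whose products the study's compounds recruit. The genes were taken by name from the 60622 genes of the deposited tables by a rule that uses no measured value, though with earlier results of these data known, and all 44 were found and passed the filter on low counts in every comparison. Acetyltransferases place an acetyl group on lysine, histone deacetylases (HDACs) and the NAD-dependent sirtuins remove it, and bromodomains bind it. Most nuclear deacetylases work inside corepressor complexes built on scaffolds such as SIN3A, SIN3B, NCOR1 and RCOR1. The tumour suppressor p53 is itself acetylated by several of these enzymes, deacetylated by HDAC1 and SIRT1, and bound through acetyl-lysine by bromodomain proteins.

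RNA was sequenced from H1299, an established human non-small cell lung cancer line that makes no p53 protein of its own and is also known to lack SMARCA4 protein. Doxycycline switches on a wild-type p53-FKBP12F36V-HA fusion in the engineered line. AceTAG compounds are heterobifunctional molecules that bind the FKBP12F36V tag on one side and an acetyltransferase on the other: AceTAG p300/CBP-1, called the p300/CBP compound here, and AceTAG PCAF/GCN5-4, called the PCAF/GCN5 compound. The study asked how these compounds change the transcriptome.

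There were 6 groups of 3 libraries: non-induced and induced cells, each given DMSO, the PCAF/GCN5 compound or the p300/CBP compound for 24 h, with all cells plated 24 h before treatment. All groups share the H1299 background. The titles name the tagged p53 only for induced samples, and the labels leave out whether doxycycline was given to non-induced cells, how many clones the line comprises, and the dose of each compound. They also do not say that replicates were separate cultures, so p-values measure only the spread between these samples, which may be technical. Libraries held 9.1 to 29.2 M counts, the lowest in the third non-induced DMSO library. The 4 genes fixed as markers of this line (KRT8, KRT18, VIM and CDH2) summed to 3630 to 4340 CPM (counts per 1000000 counts of the library) in non-induced and 2800 to 3210 CPM in induced libraries. Immune markers summed to at most 0.273 CPM, with PTPRC at 0 in all 18 libraries, endothelial markers to at most 0.706 CPM and fibroblast markers to at most 2.84 CPM.

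The 44 genes were expressed at very different levels. Levels were compared between genes only as CPM per kilobase of annotated exonic length, in the non-induced DMSO group (mean ± SD, n = 3 libraries). ATAD2, an ATPase with a bromodomain that is known as a coactivator for E2F target genes, had the highest level at 73.5 ± 1.24. BRD2, a reader of the BET family, followed at 67.7 ± 0.798 and HDAC1, the class I deacetylase of SIN3, NuRD and CoREST complexes, at 65.1 ± 2.27. The library values of BRD2 and HDAC1 overlapped, and those of ATAD2 lay above both. The next gene, NCOR1, stood at 24.4 ± 0.228.

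Among the class I deacetylases, HDAC8 was lowest at 0.654 ± 0.0178. Class IIa deacetylases, which shuttle between nucleus and cytoplasm, ranged from HDAC7 at 8.18 ± 0.348 to HDAC4 at 1.33 ± 0.147. The class IIb enzymes were the tubulin deacetylase HDAC6 at 3.11 ± 0.0951 and HDAC10 at 0.361 ± 0.085, the lowest of all 44. HDAC11, the one class IV enzyme, had 2.21 ± 0.271.

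Sirtuins ranged from SIRT6, a nuclear histone H3 deacetylase, at 13.7 ± 0.528 to mitochondrial SIRT4 at 1.08 ± 0.339. Among the corepressor scaffolds and their SIN3 partners SAP18 and SAP30, NCOR1 was highest and SIN3B lowest at 9.73 ± 0.12. The MYST acetyltransferases ranged from KAT7 at 6.59 ± 0.161 to KAT6B at 1.21 ± 0.0607. The BRPF scaffolds, which carry only some of them, ranged from BRPF3 at 16.4 ± 0.606 to BRD1 at 7.38 ± 0.801. Of the 6 remodeller genes, BRD7 of the PBAF complex was highest at 17.4 ± 0.0567 and the ATPase gene SMARCA4 lowest at 1.41 ± 0.0894. The lowest count of any of the 44 genes in any library was 9, for SIRT4.

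**Figure D1:**
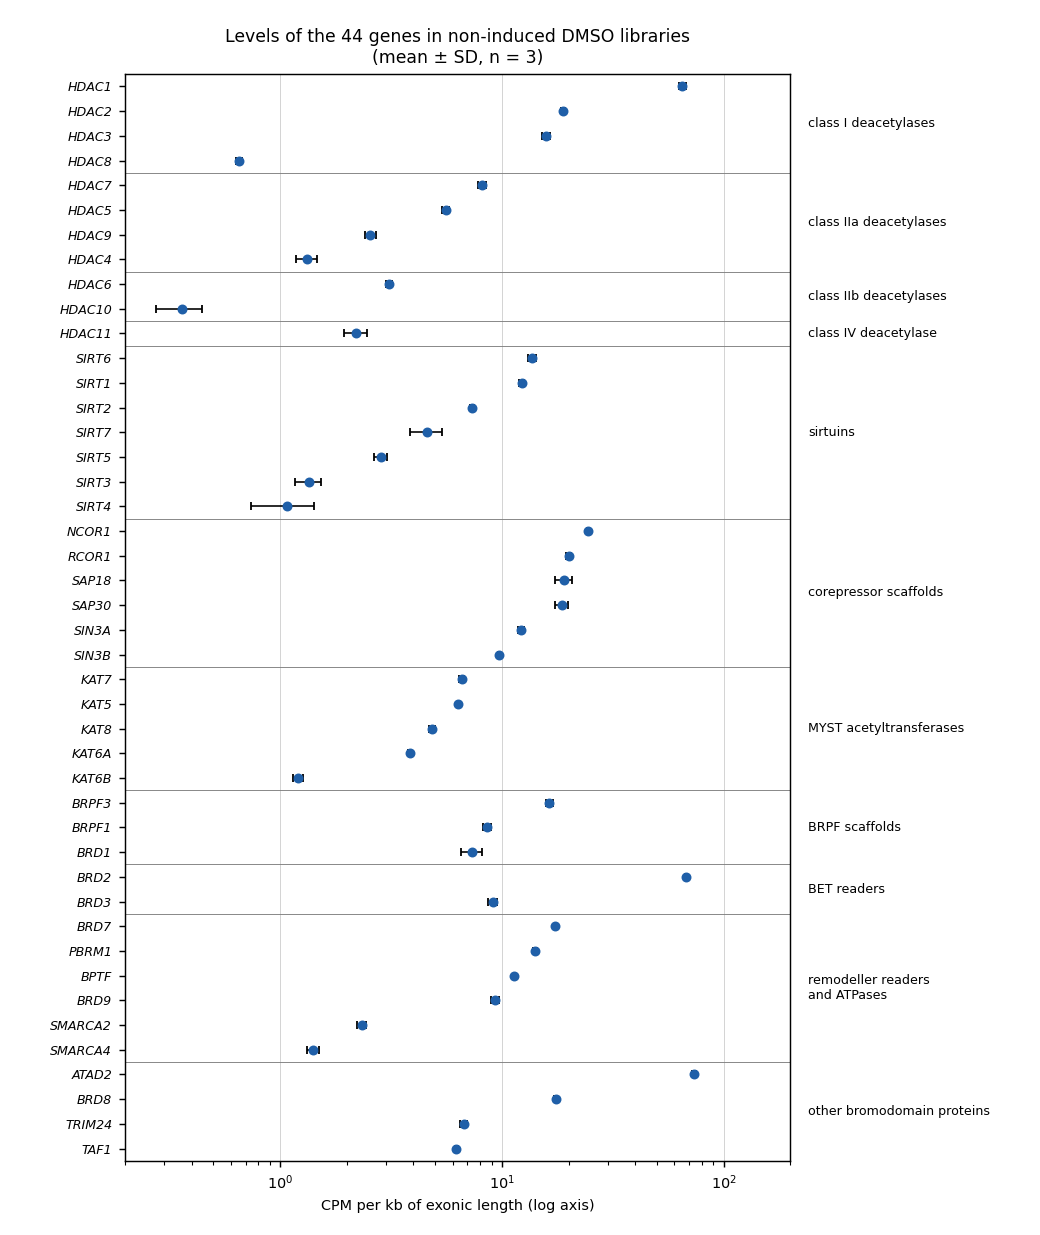
Level of each of the 44 genes in non-induced DMSO libraries, in CPM per kilobase of exonic length on a log axis, grouped by role (points: mean, bars: SD, n = 3). ATAD2, BRD2 and HDAC1 lie between 65.1 and 73.5, apart from all others, and HDAC10 is lowest at 0.361.

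Some levels rest on shared sequence. HDAC10 shares 55.8% of its exonic length with MAPK12 on the same strand, KAT5 38.6% with RNASEH2C, BRD7 42.3% with ADCY7 and BRD3 18.6% with BRD3OS, the last 3 on the opposite strand. BRD8 shares 1.87% with KIF20A, a mitotic kinesin gene, on the opposite strand. The library kit keeps strand, but whether counting used it is not given in the sources used here, so reads of these pairs may not be separated.

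Each comparison was tested across all expressed genes with edgeR's quasi-likelihood F test (2-sided), and a gene was called at a Benjamini-Hochberg adjusted p below 0.05 over all genes tested. Changes are given on the log2 scale as fold change ± SE, from 3 libraries a group. Over 11 comparisons, 15 of the 44 genes (34.1%) were called at least once and 29 never, where 41.7% of the 14346 genes tested in all 11 were called at least once. Calls named without another setting are those of this test. ATAD2 was called in 7 comparisons, SAP18 in 4, and HDAC5, TRIM24, SIN3B and NCOR1 in 3 each.

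**Figure D2:**
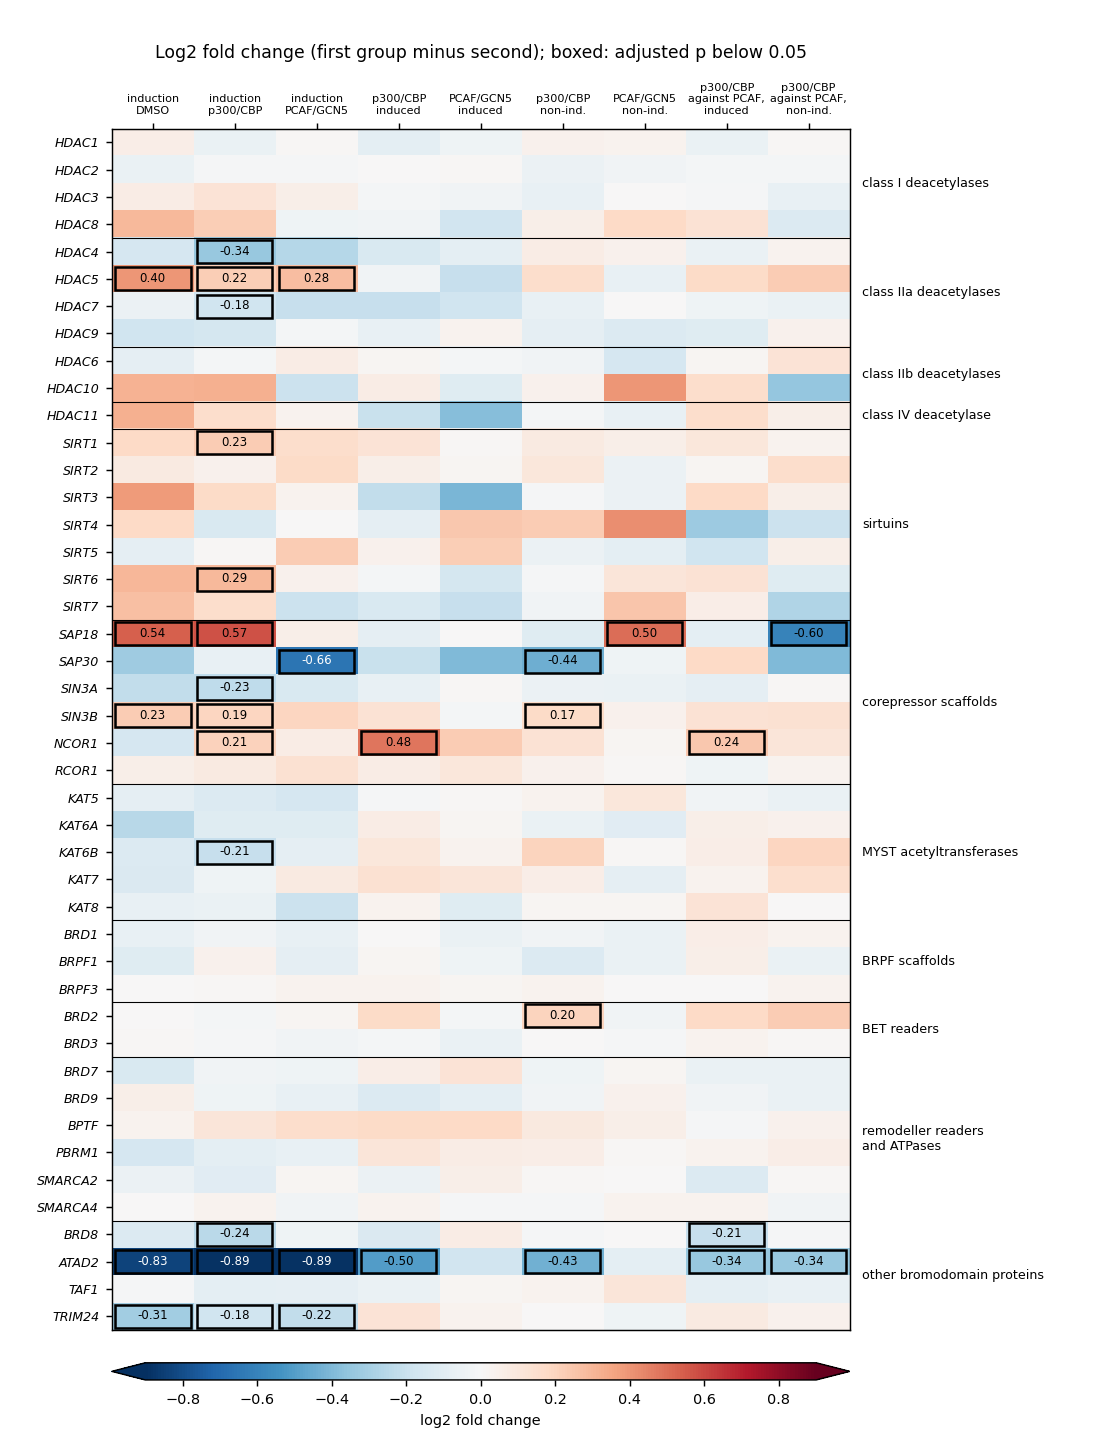
Log2 fold change of the 44 genes (rows, by role) in the 9 comparisons of 2 groups (columns); colour gives the size, and boxed cells with a printed value had an adjusted p below 0.05. ATAD2 is boxed in 7 of the 9 columns, and the remodeller and BRPF rows hold no box.

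The first question was what induction of the tagged p53 did, in DMSO and under each compound. These 3 contrasts use different libraries. In DMSO, 3 of 44 genes rose (SAP18, HDAC5 and SIN3B) and 2 fell (ATAD2 and TRIM24), where 6.01% of the 15055 genes tested rose and 7.77% fell. Under the p300/CBP compound 6 rose and 7 fell, against 16.4% rising and 16.2% falling of 14844. Under the PCAF/GCN5 compound 1 rose and 3 fell, against 11.4% and 12.5% of 15236. The members called made 11.4%, 29.5% and 9.09% of the 44 in these contrasts, none of them above the background. The median log2 change of the 44 was -0.03, -0.02 and -0.02, beside 0.01, 0.01 and 0.00 over all genes tested. ATAD2, TRIM24 and HDAC5 were called in all 3 contrasts, each in 1 direction.

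ATAD2 (chr8:123319850-123416350, minus strand, GRCh38) moved most. Its level was 522, 531 and 513 CPM in non-induced DMSO libraries and 291, 299 and 311 CPM in induced ones. Under the PCAF/GCN5 compound it went from 460, 543 and 484 CPM to 273, 293 and 256 CPM. Under the p300/CBP compound it went from 416, 384 and 375 CPM to 216, 210 and 215 CPM.

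Every induced library lay below every non-induced library. The fall on induction was -0.83 ± 0.06 in DMSO (1.77-fold, adjusted p = 5.3e-05), -0.89 ± 0.05 under the p300/CBP compound (adjusted p = 3.28e-10) and -0.89 ± 0.08 under the PCAF/GCN5 compound (adjusted p = 1.14e-06). In bulk RNA, fewer cells that express a gene and less of its RNA per cell cannot be told apart. A list of 14 replication and mitosis genes (the MCM2 to MCM7 helicase genes, MKI67, TOP2A, CCNA2, CCNB1, CDK1, BUB1, RRM2 and E2F1) moved with ATAD2. All 14 fell in each of the 3 contrasts, with medians of -0.99 in DMSO, -1.13 under the p300/CBP compound and -1.13 under the PCAF/GCN5 compound. Their part in the change of ATAD2 was not tested.

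TRIM24 (chr7:138460259-138589996, plus strand), a bromodomain protein known as a ubiquitin ligase for p53, fell less. It had 60.2, 63.2 and 64.7 CPM in non-induced and 51.1, 56.4 and 47.5 CPM in induced DMSO libraries. Under the PCAF/GCN5 compound the values were 60.6, 61.6 and 62.2 against 54.0, 58.1 and 49.9 CPM, and under the p300/CBP compound 65.4, 62.5 and 61.7 against 57.5, 55.1 and 56.2 CPM. All 9 induced libraries lay below all 9 non-induced ones. The changes were -0.31 ± 0.08 (adjusted p = 0.0336), -0.22 ± 0.08 (0.0436) and -0.18 ± 0.06 (0.0226) respectively. The call in DMSO was lost without the first induced or any non-induced library, that under the PCAF/GCN5 compound without the first or the third induced or the second or the third non-induced one, and that under the p300/CBP compound without the second or the third induced or the first or second non-induced one (adjusted p up to 0.221).

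HDAC5 (chr17:44076746-44123702, minus strand), a class IIa deacetylase, rose. Its level went from 41.9, 41.5 and 44.4 to 54.4, 56.3 and 61.0 CPM in DMSO. The values were 42.3, 38.4 and 41.5 against 51.1, 47.4 and 54.0 CPM under the PCAF/GCN5 compound, and 44.1, 49.9 and 49.9 against 54.6, 57.7 and 56.8 CPM under the p300/CBP compound. The groups did not overlap within any treatment. The rise was 0.40 ± 0.08 in DMSO (adjusted p = 0.0104), 0.28 ± 0.08 under the PCAF/GCN5 compound (0.0164) and 0.22 ± 0.06 under the p300/CBP compound (0.00974). The calls were lost without the first or second non-induced DMSO library, the first or the third induced or second non-induced PCAF/GCN5 library, and the second induced p300/CBP library, respectively (adjusted p up to 0.0855).

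Of the SIN3 complex genes, SAP18 (chr13:21140514-21149084, plus strand), a subunit also known from a splicing complex, rose in 2 of the 3 contrasts. It stood at 59.7, 70.7 and 63.8 CPM in non-induced and at 106, 96.0 and 85.8 CPM in induced DMSO libraries. Under the p300/CBP compound it went from 70.2, 53.3 and 58.7 to 95.8, 90.9 and 87.5 CPM. Under the PCAF/GCN5 compound it was already at 86.8, 94.3 and 96.2 CPM in non-induced cells, beside 106, 89.4 and 99.4 CPM in induced ones.

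The 2 low groups of SAP18, non-induced cells with DMSO or the p300/CBP compound, did not overlap any other group. The rises were 0.54 ± 0.09 in DMSO (1.45-fold, adjusted p = 0.00535) and 0.57 ± 0.08 under the p300/CBP compound (1.49-fold, adjusted p = 2.25e-05). Under the PCAF/GCN5 compound the difference was 0.05 ± 0.08 (95% interval -0.12 to 0.22, adjusted p = 0.69).

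SIN3B (chr19:16829400-16880353, plus strand), a SIN3 scaffold, went from 84.9, 84.6 and 86.6 CPM to 101, 102 and 103 CPM in DMSO. Under the p300/CBP compound it went from 95.9, 95.8 and 100 CPM to 109, 115 and 113 CPM. Within each of these treatments the groups did not overlap. The rises were 0.23 ± 0.06 (adjusted p = 0.0284) and 0.19 ± 0.05 (0.00503). The difference was 0.19 ± 0.07 under the PCAF/GCN5 compound (adjusted p = 0.0671), where the levels were 84.4, 89.7 and 91.3 against 109, 98.2 and 104 CPM, also without overlap. SIN3B was called there in a fit of all 6 groups (0.20, adjusted p = 0.0124) and without the second induced library (0.24, adjusted p = 0.034). The DMSO call was lost in 7 of 11 alternatives, among them the omission of any non-induced DMSO library or of the first or second induced one (adjusted p up to 0.146).

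SAP30 (chr4:173369969-173377532, plus strand), another SIN3 subunit, was called under the PCAF/GCN5 compound, where it fell from 27.3, 23.8 and 21.4 to 18.9, 11.5 and 16.1 CPM. The change was -0.66 ± 0.15 (adjusted p = 0.00402), beside -0.32 ± 0.14 in DMSO (adjusted p = 0.185, and -0.51 with 3.34e-06 without the third induced library) and -0.07 ± 0.11 under the p300/CBP compound (0.648). Whether these 3 changes differ was tested only as the interactions given further on, and neither passed.

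The other calls on induction were small and came under the p300/CBP compound. Their difference from the changes in DMSO was tested only as the p300/CBP interaction given further on. In the groups compared, edgeR called 0 of the 44 genes in that interaction. No test compared these calls with the changes under the PCAF/GCN5 compound. SIRT1, the sirtuin known to deacetylate p53, rose from 56.2, 62.6 and 61.5 to 70.2, 71.6 and 71.1 CPM (0.23 ± 0.06, adjusted p = 0.00428). SIRT6 rose from 38.8, 38.9 and 36.3 to 44.3, 48.7 and 47.5 CPM (0.29 ± 0.07, adjusted p = 0.00241). NCOR1 rose from 398, 416 and 436 to 469, 497 and 489 CPM (0.21 ± 0.05, adjusted p = 0.00163).

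In DMSO the values of SIRT1 and SIRT6 were 0.18 ± 0.06 (adjusted p = 0.0939) and 0.30 ± 0.10 (0.0866), and both genes were called there in a fit of all 6 groups and without the third induced DMSO library. NCOR1 had -0.15 ± 0.10 in DMSO (adjusted p = 0.377).

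Under the p300/CBP compound 5 further genes fell on induction. HDAC4 fell from 19.8, 17.4 and 18.9 to 15.9, 14.5 and 14.4 CPM (-0.34 ± 0.09, adjusted p = 0.00689). BRD8, a bromodomain subunit of the KAT5 (TIP60) complex, fell from 116, 120 and 138 to 104, 109 and 107 CPM (-0.24 ± 0.06, adjusted p = 0.00301). SIN3A, the paralogue of SIN3B, fell from 146, 146 and 152 to 127, 127 and 128 CPM (-0.23 ± 0.05, adjusted p = 0.000781). Its value in DMSO was -0.22 ± 0.08 (adjusted p = 0.113), called there in a fit of all 6 groups, without the filter on low counts and without the third induced DMSO library.

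The smallest of these falls were in an acetyltransferase and a deacetylase. KAT6B, a MYST acetyltransferase, fell from 44.8, 46.2 and 45.6 to 39.0, 39.7 and 40.3 CPM (-0.21 ± 0.06, adjusted p = 0.0113, and 0.0901 without the second non-induced library). HDAC7 fell from 79.3, 78.1 and 77.5 to 74.8, 66.4 and 67.9 CPM (-0.18 ± 0.06, adjusted p = 0.024), and its call was lost without the second or the third induced or the first or second non-induced library (adjusted p up to 0.137).

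By role, edgeR in the groups compared called none of the class I, class IIb or class IV deacetylases on induction in any treatment. Under other settings HDAC8, a class I enzyme, was called: in DMSO in a fit of all 6 groups (0.30, adjusted p = 0.0241) and without the third induced library, and under the p300/CBP compound without the third non-induced library (0.28, 0.0196). The class I genes lay between -0.06 and 0.29 in DMSO, between -0.06 and 0.22 under the p300/CBP compound and between -0.04 and 0.05 under the PCAF/GCN5 compound. No remodeller gene was called in the groups compared, with changes between -0.15 and 0.16 over the 3 contrasts. BPTF, the large subunit of NURF, was called under the PCAF/GCN5 compound in a fit of all 6 groups (0.17, adjusted p = 0.0318) and without the first non-induced library, and in DMSO, as BRD7 was, without the third induced library. The BRPF scaffolds lay between -0.11 and 0.04, and BRD2 and BRD3 between -0.03 and 0.02. The 5 MYST acetyltransferase genes lay between -0.25 and -0.07 in DMSO, with none called. KAT6B had 40.8, 40.3 and 29.6 CPM in induced DMSO libraries, and its value went from -0.12 to 0.02 without the third. KAT6A, at -0.25 ± 0.08 (adjusted p = 0.0869), was called in a fit of all 6 groups, without the filter on low counts and without the second or the third induced library, and KAT8 without the third (-0.21, adjusted p = 0.0246).

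**Figure D3:**
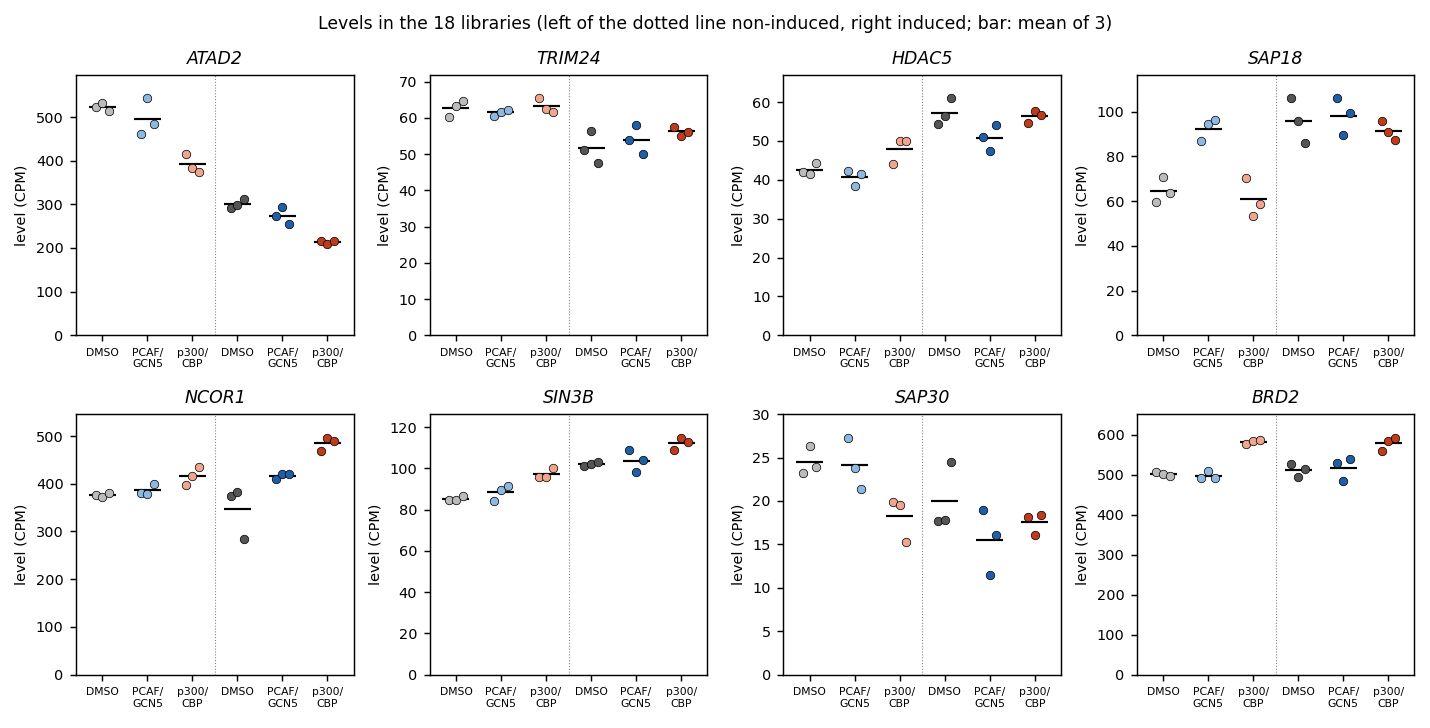
Level (CPM, linear axis from 0) of 8 of the genes in each of the 18 libraries (points) with the group mean (bar); non-induced groups are left of the dotted line and induced groups right. ATAD2 steps down from 522 CPM in non-induced DMSO to 213.5 CPM in induced p300/CBP libraries, SAP18 is low in 2 groups only, and NCOR1 has 1 low induced DMSO library.

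The second question was what each compound did against DMSO within a state. The p300/CBP compound lowered ATAD2 in both states. In induced cells 1 of the 44 genes rose (NCOR1) and 1 fell (ATAD2), against 2.94% rising and 3.04% falling of 15019 genes. In non-induced cells 2 rose (BRD2 and SIN3B) and 2 fell (ATAD2 and SAP30), against 3.43% and 6.46% of 14943. Of the 18 deacetylase and sirtuin genes, edgeR in the groups compared called none against DMSO with either compound in either state. HDAC7 had -0.21 ± 0.07 with the p300/CBP compound in induced cells (adjusted p = 0.112) and was called there in a fit of all 6 groups (0.029), without the third DMSO library and in the authors' deposited table (-0.22, adjusted p = 0.0104). HDAC5 was called in non-induced cells without the first p300/CBP library (0.20, adjusted p = 0.0459).

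ATAD2 fell with the p300/CBP compound by 0.50 on the log2 scale in induced cells (SE 0.06, 1.41-fold, adjusted p = 0.00174) and by 0.43 in non-induced cells (SE 0.05, 1.35-fold, adjusted p = 4.88e-05). The 4 groups did not overlap. The effect in induced minus that in non-induced cells was -0.06 ± 0.08 (95% interval -0.23 to 0.12, adjusted p = 0.843). Of the 14 replication and mitosis genes, 13 fell in induced cells (median -0.69) and 14 in non-induced cells (median -0.58) with this compound, and their part in the ATAD2 change was not tested.

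NCOR1 (chr17:16029157-16218185, minus strand), the scaffold that activates HDAC3, rose in induced cells. It had 375, 382 and 284 CPM with DMSO and 469, 497 and 489 CPM with the p300/CBP compound, a change of 0.48 ± 0.10 (1.39-fold, adjusted p = 0.0295). The third DMSO library was the low one. Without it the change was 0.36 (adjusted p = 8.7e-12). The call was lost without the first DMSO library or any 1 of the treated libraries (adjusted p up to 0.152). In non-induced cells NCOR1 had 377, 373 and 380 against 398, 416 and 436 CPM, a difference of 0.13 ± 0.04 (adjusted p = 0.0783), and the interaction was 0.36 ± 0.11 (adjusted p = 0.205). The authors' deposited table called NCOR1 in non-induced cells too (0.12, adjusted p = 0.0269). It was also called there without the first p300/CBP library (0.15, adjusted p = 0.0377).

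BRD2 (chr6:32968594-32981505, plus strand) had 508, 501 and 496 CPM with DMSO and 577, 585 and 587 CPM with the p300/CBP compound in non-induced cells. The groups did not overlap, and the rise was 0.20 ± 0.04 (1.15-fold, adjusted p = 0.00589, and 0.0562 without the second DMSO library). In induced cells it had 527, 495 and 514 against 560, 584 and 593 CPM, a difference of 0.17 ± 0.06 (adjusted p = 0.147). The authors' deposited table gives 0.16 with an adjusted p of 0.00875 for BRD2 in induced cells.

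SIN3B was higher with the p300/CBP compound in non-induced cells by 0.17 ± 0.05 (adjusted p = 0.0369), a call lost in 7 of 11 alternatives (adjusted p up to 0.182), among them the omission of any DMSO library or of the second treated one. SAP30 fell there from 23.2, 26.3 and 23.9 to 19.9, 19.5 and 15.3 CPM, without overlap (-0.44 ± 0.10, adjusted p = 0.011), with an adjusted p of up to 0.128 over the alternatives. The omission of the second DMSO library ended that call.

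With the PCAF/GCN5 compound few genes of any kind were called. In induced cells edgeR called 0 of the 44 genes in either direction, against 0.338% rising and 0.00663% falling of 15078 genes. At an unadjusted p below 0.05 there was 1 of the 44, HDAC5, with -0.21 ± 0.09 (adjusted p = 0.488), beside 10.1% of all genes tested. DESeq2 called 0 as well. Of the 15 genes called in any comparison, the authors' deposited table called 2 here, ATAD2 with -0.17 (adjusted p = 0.0179) and NCOR1 with 0.23 (adjusted p = 0.0308). For ATAD2 the edgeR value was -0.17 ± 0.08 (95% interval -0.35 to 0.02). In simulated data of these library sizes, 50% of 1.5-fold and 77% of 2-fold changes were recovered in this comparison.

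In non-induced cells 1 of the 44 genes was called with the PCAF/GCN5 compound, a rise of SAP18, where 0.00662% of 15100 genes were called higher and 0.0132% lower. SAP18 was the 1 gene called higher among them. With the replicate number as a block, 14 genes (0.0927%) were called. The labels do not say that the numbers mark a shared batch, and the block was chosen from these data. Same-numbered correlations were 0.176 to 0.259 for these groups, and a single one reached 0.563 in another pair of groups. They cannot settle whether the numbers mark a batch. SAP18 went from 59.7, 70.7 and 63.8 to 86.8, 94.3 and 96.2 CPM, without overlap (0.50 ± 0.07, 1.41-fold, adjusted p = 0.0175). With the block the adjusted p of SAP18 was 0.000941. The authors' deposited table gives 0.49 with an adjusted p of 9.44e-05. The call was lost in 6 of 10 alternatives, namely in a fit of all 6 groups and without any 1 of the DMSO libraries or the second or the third treated library, with an adjusted p of up to 0.805 and values between 0.43 and 0.57. ATAD2 had -0.09 ± 0.06 here (95% interval -0.22 to 0.04, adjusted p = 0.815), and none of the 14 replication and mitosis genes was called with this compound in either state (medians -0.26 in induced and -0.15 in non-induced cells).

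The compounds were also compared with each other, at the single time of 24 h and at doses that the labels do not give. These comparisons reuse the treated libraries of the comparisons with DMSO. In induced cells 1 of the 44 genes was higher with the p300/CBP than with the PCAF/GCN5 compound (NCOR1) and 2 were lower (ATAD2 and BRD8), against 1.87% and 2.25% of 14983 genes. In non-induced cells 0 were higher and 2 lower (SAP18 and ATAD2), against 0.159% and 0.932% of 15131.

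ATAD2 was lower with the p300/CBP compound in both states, at -0.34 ± 0.06 in induced (adjusted p = 0.0018) and -0.34 ± 0.08 in non-induced cells (adjusted p = 0.0444). The latter call was lost with a replicate block and without the second or the third library of either compound (adjusted p up to 0.241). NCOR1 in induced cells had 469, 497 and 489 CPM against 410, 420 and 420 CPM, and the difference was 0.24 ± 0.05 (adjusted p = 0.0101, and up to 0.118 without the second or the third p300/CBP library). BRD8 had 104, 109 and 107 against 128, 119 and 126 CPM there (-0.21 ± 0.05, adjusted p = 0.0412), a call lost in 7 of 11 alternatives, 5 of them the omission of 1 library: any p300/CBP library, or the first or the third PCAF/GCN5 one (adjusted p up to 0.211).

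SAP18 in non-induced cells differed most, with 70.2, 53.3 and 58.7 CPM under the p300/CBP compound against 86.8, 94.3 and 96.2 CPM (-0.60 ± 0.09, 1.52-fold, adjusted p = 0.0125). The call was lost without the second library of either compound (adjusted p up to 0.145). In induced cells the same difference was -0.09 ± 0.07 (95% interval -0.23 to 0.05, adjusted p = 0.571).

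For most of the 44 genes the data bound the size of any change. The 95% interval lay within 1.5-fold in either direction for 39 genes with each compound in induced cells, for 42 with the p300/CBP and 41 with the PCAF/GCN5 compound in non-induced cells, and for 42 and 40 between compounds. Over all genes tested the share with such an interval was 61.6% and 63.9% in induced, 72.7% and 75.4% in non-induced cells, and 73.1% and 72.2% between compounds. Beside the called genes, those outside this bound were SIRT3, SIRT4, HDAC10, HDAC11 and SAP30, whose means over the 18 libraries were 1.65 to 20 CPM. HDAC1, for example, differed by -0.09 ± 0.06 with the p300/CBP compound in induced cells (95% interval -0.23 to 0.05) and KAT5 by -0.01 ± 0.11 (-0.27 to 0.25).

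Whether a compound acted differently in induced and non-induced cells was tested as an interaction on 4 groups. For the p300/CBP compound edgeR called 0 of the 44 genes, against 1.09% of 15618 genes with a higher and 0.192% with a lower effect in induced cells. For the PCAF/GCN5 compound it also called 0, against 0.0632% and 0.00632% of 15813. DESeq2 called 0 in both. At an unadjusted p below 0.05 there was 1 gene for the p300/CBP compound, NCOR1, and 3 for the PCAF/GCN5 compound: SAP18 with -0.50 ± 0.13 (adjusted p = 0.397), HDAC8 with -0.34 ± 0.13 (0.658) and SIRT5 with 0.31 ± 0.13 (0.658). Over all genes tested 10.5% and 7.26% had such a p. Without the filter on low counts NCOR1 (0.35, adjusted p = 0.0259) and SAP18 (-0.49, adjusted p = 0.00916) were called in these interactions, and NCOR1 also without the third induced DMSO library (0.23, adjusted p = 0.0325). SAP30 had 0.25 ± 0.19 and -0.36 ± 0.23. Simulated 1.5-fold interactions, in genes drawn at random from those tested, were recovered in 35% and 39% of cases. Recovery at the levels of the 44 genes was not simulated, and interactions among them may have been missed.

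One library stood apart in values that touch these counts. In the third induced DMSO library KAT6B was at 0.729 and NCOR1 at 0.749 of the mean of its 2 partners, while SIRT3 was at 1.59, HDAC11 at 1.54 and SAP30 at 1.38. Across the 44 genes this ratio ran against exonic length with a Spearman correlation of -0.46, and of -0.14 across 15055 genes; genes within 1 library are not independent, and the part of length in the results was not tested. Without that library 14 of the 44 genes were called on induction in DMSO (7 in each direction) instead of 5, and 8 with the p300/CBP compound in induced cells (3 higher and 5 lower) instead of 2. Calls rose over all genes too, from 13.8% to 32.5% and from 5.98% to 21.2%, beside 31.8% and 18.2% of the 44. The 8 were ATAD2, BRD2, BRD8, HDAC7, NCOR1, SAP18, SIN3A and SIN3B. The value of ATAD2 was then -0.86 on induction and -0.46 with the compound.

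**Figure D4:**
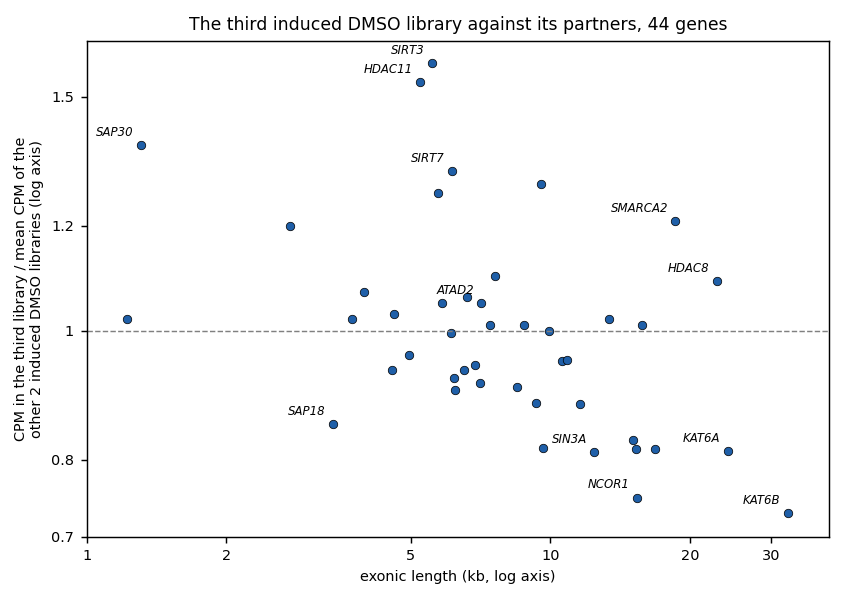
CPM in the third induced DMSO library divided by the mean of the other 2 induced DMSO libraries, for each of the 44 genes, against exonic length in kilobases (both axes log). Of the 22 longer genes 14 lie below 1, KAT6B (0.729) and NCOR1 (0.749) lowest, while SMARCA2 (1.21) and HDAC8 (1.09) lie above. Of the 22 shorter genes 9 lie below 1, SAP18 (0.851) lowest, and SIRT3 (1.59) is highest.

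The neighbouring genes of the same machinery were described by a wider list of 100 genes: other acetyltransferases, other bromodomain and YEATS readers, corepressor subunits and acetyltransferase complex subunits. All 100 were tested in every comparison. On induction 5 rose and 13 fell in DMSO, 15 and 26 under the p300/CBP compound and 16 and 24 under the PCAF/GCN5 compound, with medians of -0.04, -0.04 and -0.02. These calls made 18%, 41% and 40% of the list, beside 13.8%, 32.6% and 23.9% of all genes tested. With the p300/CBP compound 1 rose and 2 fell in induced cells (3%, beside 5.98% of all genes) and 6 rose and 12 fell in non-induced cells (18%, beside 9.89%). With the PCAF/GCN5 compound edgeR called 0 in both states.

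The largest called falls on induction in DMSO were in ESCO2, the cohesin acetyltransferase of S phase (-1.32 ± 0.10, adjusted p = 7.9e-05), TRERF1 (-0.75 ± 0.11, 0.00303) and HAT1, which acetylates new histone H4 (-0.39 ± 0.06, 0.00413). The largest rises were in MEAF6, a subunit of MYST complexes (0.60 ± 0.07, 0.000825), ING4 (0.35 ± 0.09, 0.0398) and PHF21A (0.32 ± 0.09, 0.0459). Under the p300/CBP compound the largest falls on induction were in ESCO2 (-1.32 ± 0.11, 2.68e-08), TRERF1 (-1.31 ± 0.13, 2e-07) and JADE2, a scaffold of KAT7 (-0.73 ± 0.06, 1.8e-08). The largest rises were in BRMS1L, a SIN3 complex subunit (0.94 ± 0.08, 4.14e-08), MEAF6 (0.44 ± 0.06, 1.66e-05) and BAZ1A, a remodeller subunit with a bromodomain (0.42 ± 0.05, 2.51e-06).

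BRMS1L and JADE2 also differed by state in their response to the p300/CBP compound. BRMS1L rose with it in induced cells (0.81 ± 0.08, adjusted p = 0.000686) and its interaction was 0.79 ± 0.13 (0.00363). JADE2 fell with it in induced cells (-0.31 ± 0.06, 0.0199) and rose in non-induced cells (0.20 ± 0.06, 0.0329), with an interaction of -0.50 ± 0.09 (0.00768). The third called interaction of the 100 was MTA2, a NuRD subunit (0.33 ± 0.08, 0.0455).

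Promoter sequence was read for the genes that RefSeq's table for GRCh38.p14 holds: 36 of the 44 genes had 66 windows of 250 bases before a start. ATAD2, TRIM24, HDAC5 and SAP18 were among the 8 without one. An E2F-type motif (TTTCCCGC, TTTCGCGC, TTTGCCGC or TTTGGCGC on either strand), of the kind found at replication genes, was present in 4 of the 66 windows, of BRD7, BRPF3, SIN3A and SIRT6, and in 2.79% of all 35116 windows. The CHR element of mitotic promoters (TTTGAA or TTCGAA on either strand) was in 6 of the 66 and in 14.3% of all windows. The 2 E2F-type matches in genes called in any comparison are shown as stretches of 60 bases on the gene's own strand, with the match in capitals. For SIRT6, which rose on induction under the p300/CBP compound, it is chr19:4182754-4182813 (minus strand, match from position -225 from the start), and for SIN3A, which fell, a second start at chr15:75451790-75451849 (minus strand, match from -133, read on the other strand).
SIRT6: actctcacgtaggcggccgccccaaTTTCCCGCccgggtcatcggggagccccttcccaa
SIN3A: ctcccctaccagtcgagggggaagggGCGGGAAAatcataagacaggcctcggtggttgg
The 2 matches have the same letters, on opposite strands, and their part in either change was not tested. A match is a description of the letters and shows no binding.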

How the data were processed

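Total RNA of 18 libraries was made into a directional library, per the labels' protocols. StringTie and DESeq2 are named as tools, without versions, per the submitters' processing notes; the aligner, build, annotation and use of strand are not given in the sources used here. The authors deposited 4 tables with raw counts per gene, DESeq2-scaled signal per library, log2 fold changes with errors, a test statistic (a score), p-values and adjusted p-values, per the file headers. The 2 tables of induced cells give DMSO minus compound, so their sign was turned. One gene, ANK2, whose line is broken in 1 table, was left out. The level of the induced gene itself is not reported here. All 44 genes overlapped their GENCODE release 29 (GRCh38) gene.

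Under R 4.3.3, edgeR 4.0.16 tested the counts of the groups compared (filterByExpr, TMM, glmQLFit and glmQLFTest), with Benjamini-Hochberg adjustment over all genes tested. The SE is the log2 fold change divided by the square root of F, and intervals are at 95%. CPM are counts per 1000000 of a library's total. Alternatives were DESeq2 1.42.0, no low-count filter, RLE scaling, 1 fit of all 6 groups, a replicate block, each library left out, and the authors' deposited adjusted p. A floor of 3 counts, which covers counting error only, is 0.103 to 0.331 CPM. On simulated data with 200 changed genes, 35% to 76% of 1.5-fold and 62% to 91% of 2-fold changes were recovered, and 2.42% to 8.75% of calls were false, over the 11 comparisons.

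The 44 genes, their roles, the wider list and the marker lists were chosen with earlier results of these data known. Values in every library were given for genes called in a comparison (where over 10 were called, the 5 largest in each direction); KAT6B and HDAC7 fell outside this rule and were added after their values were seen. From the wider list the 3 largest called rises and falls of a comparison could be named, without library values. The labels do not say that replicate numbers mark a shared batch. Over 8858 genes, all 3 same-numbered correlations were above 0.1 in 1 of 15 pairs of groups, non-induced DMSO and PCAF/GCN5 (0.176 to 0.259), and the block is given there.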

Additional observations from a re-analysis of the deposited data

How the results depend on the processing

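None of the 34 calls of the 44 genes reversed under any alternative run, and 16 of the 34 were kept under all of those alternatives. The numbers of the 44 genes called moved more. In 1 fit of all 6 groups, 10 were called on induction in DMSO (5 in the main analysis) and 8 under the PCAF/GCN5 compound (4). Calls over all genes went from 13.8% to 21.6% and from 23.9% to 24.1%, beside 22.7% and 18.2% of the 44. On induction under the p300/CBP compound calls fell instead, from 29.5% to 22.7% of the 44 and from 32.6% to 23.2% of all genes. With the p300/CBP compound 4 of the 44 were called in induced (2) and 2 in non-induced cells (4). Calls over all genes went from 5.98% to 13.8% and from 9.89% to 3.84%. That fit called 0 of the 44 with the PCAF/GCN5 compound in non-induced cells (1), and 1 between the compounds in induced cells (3). Calls over all genes went from 0.0199% to 0% and from 4.12% to 2.46%. DESeq2 called 0 of the 44 with the PCAF/GCN5 compound in non-induced cells, where it gave 30 of the 44 genes no adjusted p. It called 4 between the compounds in non-induced cells (2 in the main analysis). Over all genes it called 0.0132% and 2.9% in these comparisons, beside 0.0199% and 1.09% in the main analysis. Without the filter on low counts, 4 of the 44 were called between the compounds in non-induced cells and 1 in each interaction. The shares over all genes were then 1.97% there, and 1.23% and 0.75% in the p300/CBP and PCAF/GCN5 interactions. The authors' deposited adjusted p was read here only for the 15 genes called at least once. Among these it called, in induced cells, 4 with the p300/CBP and 2 with the PCAF/GCN5 compound. In non-induced cells it called ATAD2, BRD2, NCOR1, SAP30 and SIN3B with the p300/CBP compound and SAP18 with the PCAF/GCN5 compound. Its share over all genes is not given here. The causes were not tested.

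Leaving out each library in turn gave 2 to 14 calls on induction in DMSO, 10 to 15 under the p300/CBP compound and 2 to 6 under the PCAF/GCN5 compound. Of all genes tested, 5.66% to 32.5%, 24.4% to 37.9% and 16.8% to 23.7% were called in these contrasts, in that order. The omissions gave 1 to 8 with the p300/CBP compound in induced and 1 to 7 in non-induced cells, the latter highest without the first p300/CBP library. The shares over all genes were 1.72% to 21.2% and 3.5% to 15.8%, the latter also highest without that library. With the PCAF/GCN5 compound in non-induced cells they gave 0 to 1, beside 0% to 0.11% of all genes. Between the compounds they gave 1 to 3 in induced and 0 to 2 in non-induced cells. The shares over all genes were 1.55% to 7.15% and 0.00646% to 2.0%. In the p300/CBP interaction they gave 0 to 1, beside 0.775% to 2.73% of all genes. NCOR1 was called in that interaction without the third induced DMSO library.

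Outside non-induced DMSO and PCAF/GCN5 cells no pair of groups had all 3 same-numbered correlations above 0.1. They ranged from -0.473 to 0.563 and cannot settle whether the replicate numbers mark a batch. With the replicate block 3 members were called on induction in DMSO and 1 between the compounds in non-induced cells. Calls over all genes fell too, from 13.8% in the main analysis to 10.4% and from 1.09% to 0.304%, in that order. The members called went from 11.4% to 6.82% and from 4.55% to 2.27% of the set. Of the non-induced DMSO libraries the third, with 9.1 M counts, limits precision for the low genes: SIRT4 had 9 counts there.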
